A study of Homo sapiens with 11 samples.

Results

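The controls of a knockdown experiment in T-REx-293 cells were compared with each other: 3 arrays of cells with a short hairpin RNA (shRNA) against the green fluorescent protein (GFP) and 2 arrays of cells with an empty vector. The 5 arrays were chosen by their labels, out of 11 in the series. The other 6 carried shRNAs against Tat-SF1 and were left out, apart from 1 alternative fit. T-REx-293 cells descend from HEK293, a line of human embryonic kidney origin, and carry a repressor that lets tetracycline switch on a plasmid gene. All cells stably carried a plasmid for GFP, controls included, and were induced with tetracycline at 2.5 µg/mL for 72 h, after which they made the GFP shRNA or carried the vector alone. The series design lists biological triplicates of each construct, and replicate 3 of the empty vector was excluded by the submitters for failing quality control. Total RNA was hybridised to Affymetrix Human Exon 1.0 ST arrays, on which a probe set is a small group of probes for 1 exon or part of one. The level of GFP, the target of this shRNA, was not measured here, so the action of the hairpin could not be checked on these arrays.

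A control shRNA enters the same pathway as any other shRNA. A hairpin made in the nucleus is exported by exportin 5, cut by the endonuclease Dicer and loaded into an Argonaute protein, which then silences matching transcripts. Double-stranded RNA can also be read as a sign of infection: the sensors RIG-I and MDA5 signal through MAVS to induce interferon, and the kinase PKR and the OAS enzymes shut down translation or degrade RNA. HEK293 arose from embryonic kidney cultures by transformation with adenovirus DNA and is known for a mixed character, with epithelial keratins beside vimentin and neurofilaments. The comparison asks which genes and exons respond to an shRNA when Tat-SF1 is not depleted. All cells carried a GFP plasmid, so making the hairpin and silencing GFP cannot be told apart here. The levels on the 5 arrays describe the cells in which the depletion was made.

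The deposited table holds log2 values of 1399022 probe sets, of which 355799 carry 1 gene symbol. The array medians lay between 7.902 and 7.904, and the dim probe sets crowd at that level, so that a difference in a gene near it is compressed. Correlations between pairs of arrays over all probe sets lay between 0.943, for the 2 empty vector arrays, and 0.962, for GFP shRNA replicate 3 and empty vector replicate 1, and no 2 arrays looked like 1 sample measured again. The number of arrays limits the precision, and with 3 arrays against 2 an exact permutation test cannot give a p below 0.1.

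The control cells were described first. A gene was called detected if the median of all its probe sets lay, on each of the 5 arrays, above the 95th percentile of the probe sets of olfactory receptor genes, which serve as genes that a kidney line does not make. That level lay between 8.01 and 8.03 on the log2 scale. Of 18194 genes with at least 4 probe sets, 7342 were detected (40.4%), and another 1963 lay above the level on 1 to 4 of the arrays. None of the 209 olfactory receptor genes with enough probe sets was detected. The level was set from these same genes, so their low count follows from the rule and does not check it. At the 99th percentile in place of the 95th, 3307 genes were detected. Levels of different genes are not ranked against each other here, since probes differ in their response.

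**Figure D1:**
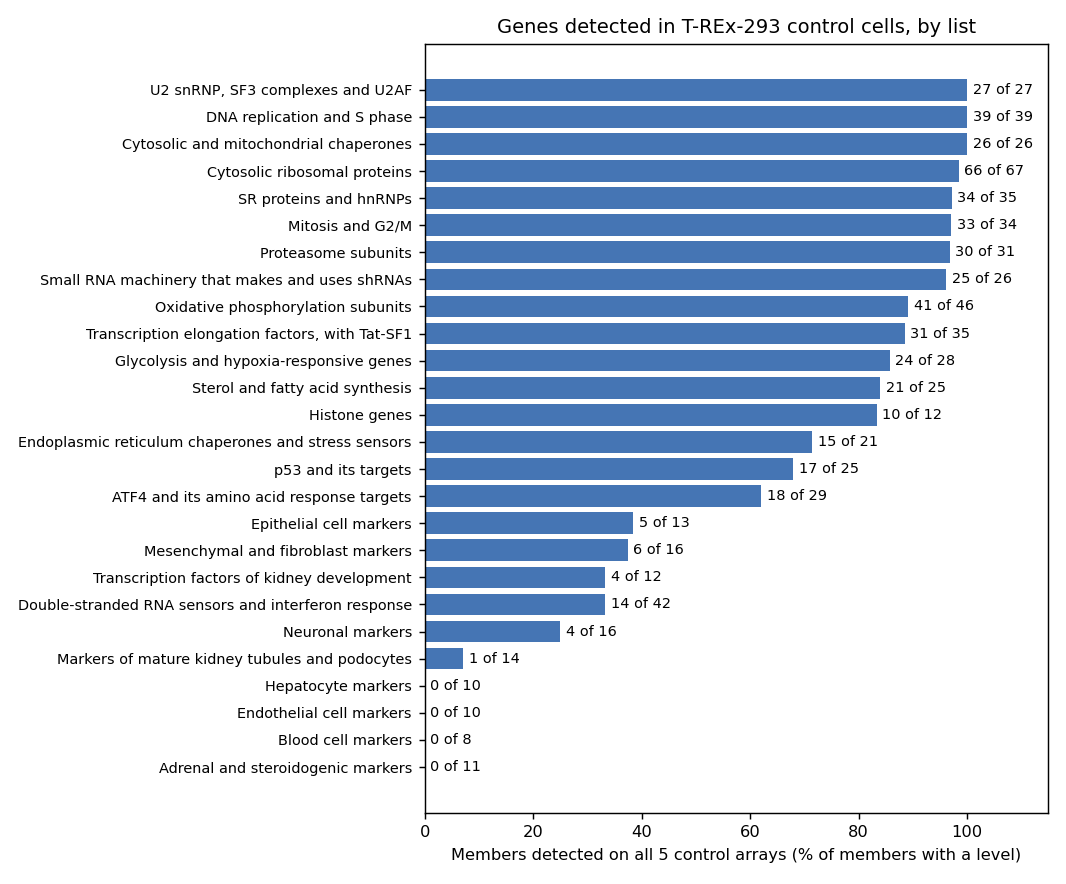
Share of the members of each gene list that were detected on all 5 arrays (horizontal axis, percent of the members with a level); the counts stand beside the bars. Lists of replication, ribosome and spliceosome genes are detected nearly whole, whereas hepatocyte, endothelial, blood and adrenal markers have no detected member.

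The genes of cell growth were detected almost throughout, beside 40.4% of all genes. All 39 genes of DNA replication and S phase, all 27 of the U2 snRNP with its partners, and all 26 cytosolic and mitochondrial chaperones were detected. The same held for 66 of 67 cytosolic ribosomal proteins, 33 of 34 genes of mitosis, 34 of 35 SR proteins and hnRNPs, 30 of 31 proteasome subunits and 41 of 46 subunits of oxidative phosphorylation. Of the transcription elongation factors, which include Tat-SF1 itself, 31 of 35 were detected. At the 99th percentile these counts were lower, for example 31 of 39 for replication, 24 of 27 for the U2 snRNP and 17 of 35 for elongation.

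Markers of cell types were detected in part, at shares not above the 40.4% of all genes. Of 13 epithelial markers 5 were detected: the keratins KRT8 and KRT18, the adhesion molecule EPCAM, the splicing factor ESRP2 and the tight junction protein OCLN. KRT8 had levels of 9.86, 9.69 and 9.82 on the GFP shRNA arrays and 9.82 and 9.41 on the empty vector arrays. Its 5 values were all far above the detection level, and those of the 2 constructs overlapped. The numbers of its probe sets fall into 4 separate runs, so that some may lie in copies elsewhere. The epithelial cadherin CDH1 was not detected, with 3 of 21 probe sets above the detection level and values from 7.87 to 8.00. The claudins CLDN4 and CLDN7 and the epithelial regulators ESRP1, GRHL2 and ELF3 were not detected either.

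Of 16 mesenchymal and fibroblast markers 6 were detected. These were the intermediate filament vimentin (VIM), the neural cadherin CDH2, fibronectin (FN1), smooth muscle actin (ACTA2) and the transcription factors ZEB1 and ZEB2. VIM had levels of 10.07, 9.95 and 9.97 with the GFP shRNA and 10.23 and 9.91 with the empty vector, so that the empty vector arrays held both the highest and the lowest value. The collagens COL1A1, COL1A2 and COL3A1 and the fibroblast receptors PDGFRA and PDGFRB, which mark fibroblasts, were not detected. FN1, ZEB1 and ZEB2 fell below the detection level at the 99th percentile.

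Of 12 transcription factors of kidney development 4 were detected, namely SALL1, GATA3, HOXD11 and TFCP2L1, and only SALL1 remained so at the 99th percentile. SALL1, a zinc finger factor of the nephron progenitors, had levels of 8.68, 8.67 and 8.51 with the GFP shRNA and 8.46 and 8.48 with the empty vector. PAX2 and PAX8, the paired box factors of the renal lineage, were not detected, with 3 of 23 and 0 of 30 probe sets above the level. EYA1 had 10 of 31 probe sets above it and WT1 8 of 18, and both, like SIX2, were detected when the upper quartile of the probe sets was used in place of the median. Of 14 markers of mature tubules and podocytes, PODXL alone was detected, and the uromodulin gene UMOD, the water channels AQP1 and AQP2 and the transporter SLC12A1 were at the background. PODXL was not detected at the 99th percentile, and LRP2 of the same list was detected by the upper quartile. PODXL and LRP2 aside, the markers of mature kidney were thus absent from the detected genes.

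Neuronal markers were detected for 4 of 16 genes: the neurofilament light chain NEFL, the internexin INA, the neuronal enolase ENO2 and the ubiquitin hydrolase UCHL1. NEFL had levels of 9.71, 9.00 and 8.98 with the GFP shRNA and 9.27 and 9.21 with the empty vector. GFP shRNA replicate 1 was the highest of the 5 arrays for NEFL, INA and ENO2. The other neurofilament genes NEFM and NEFH, the neuronal tubulin TUBB3, and the vesicle proteins SYP and SNAP25 were not detected. No member was detected of 11 adrenal and steroidogenic markers, 8 blood markers, 10 endothelial markers and 10 hepatocyte markers. In whole RNA from a culture, fewer cells of a type and less RNA per cell cannot be told apart.

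**Figure D2:**
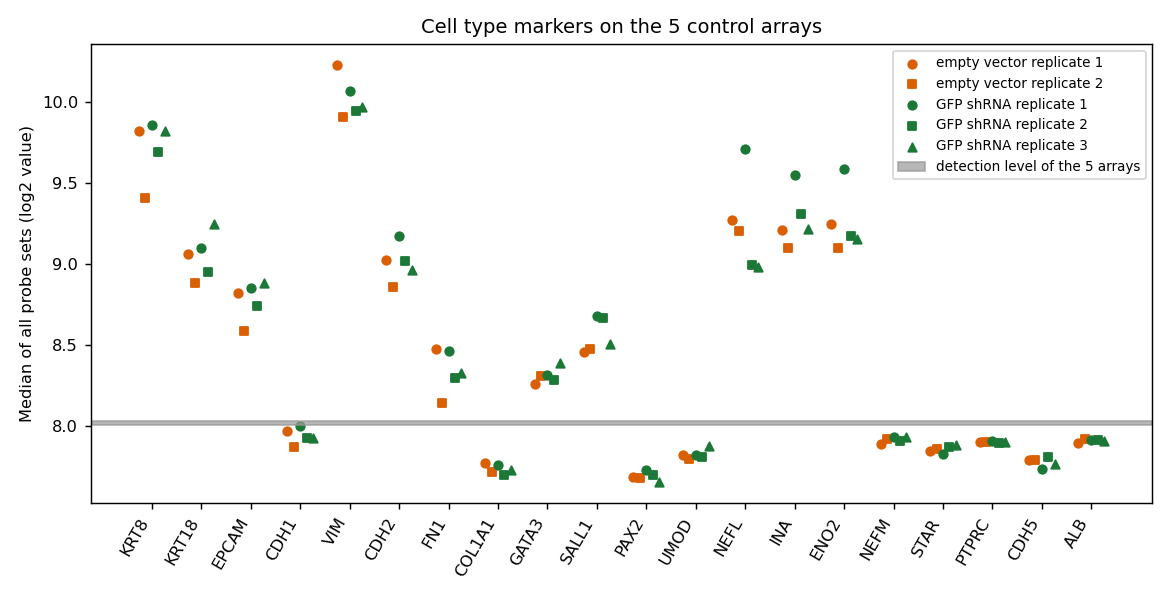
Level of 20 cell type markers on each array (vertical axis, median of all the gene's probe sets, log2 value), with empty vector arrays in orange and GFP shRNA arrays in green; the grey band is the detection level of the 5 arrays. KRT8, KRT18, EPCAM, VIM, CDH2, NEFL, INA and ENO2 lie above the band on every array, and CDH1, COL1A1, PAX2, UMOD, NEFM, STAR, PTPRC, CDH5 and ALB lie at or below it.

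The machinery that makes and uses an shRNA was present under both constructs. Of 26 such genes 25 were detected, 16 of them also at the 99th percentile. DROSHA, the nuclear enzyme that cuts primary microRNAs, had levels of 9.07, 9.19 and 9.26 with the GFP shRNA and 9.22 and 8.99 with the empty vector. XPO5, which exports hairpins, had levels of 9.21, 9.23 and 9.26 against 9.26 and 9.07. DICER1, which cuts the exported hairpin, had levels of 8.89, 8.99 and 8.99 against 8.80 and 8.81. The constructs overlapped for DROSHA and XPO5 and did not overlap for DICER1. The Argonaute genes AGO1, AGO2 and AGO3 and the scaffold genes TNRC6A, TNRC6B and TNRC6C, whose proteins bind Argonaute, were all detected. TARBP2, a partner of Dicer, lay just above the detection level, with 10 of 23 probe sets above it. The microRNA regulator LIN28A was not detected (0 of 10 probe sets), whereas its relative LIN28B was (8 of 10).

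Of 42 genes that sense double-stranded RNA or answer interferon 14 were detected (33.3%), beside 40.4% of all genes, and 5 at the 99th percentile. The share is thus near that of all genes, and the list is described by its members. The sensors RIGI (0 of 26 probe sets above the detection level), IFIH1, which encodes MDA5 (2 of 27), DHX58 (0 of 19) and TLR3 (0 of 16) were not detected. EIF2AK2, which encodes PKR, was detected at 8.73, 8.57 and 8.61 with the GFP shRNA and 8.70 and 8.53 with the empty vector. ADAR, the enzyme that edits adenosines in double-stranded RNA, was detected at 9.36, 9.37 and 9.51 against 9.43 and 9.29. The values of the 2 constructs overlapped for both genes. The signalling genes MAVS, TBK1, IFNAR1, IFNAR2, JAK1, TYK2 and STAT2 were detected as well.

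The products that interferon induces were low with and without the shRNA. IFNB1, OAS1, OAS2, OAS3, OASL, IFIT1, IFIT2, IFIT3, ISG15, MX1, MX2, RSAD2, IFI27, IFI44 and IFI44L were not detected. ISG15, a ubiquitin-like protein and one of the most inducible of these, had levels of 7.72, 7.65 and 7.67 with the GFP shRNA and 7.74 and 7.77 with the empty vector. MX1, an antiviral GTPase, had levels of 7.90, 7.86 and 7.86 against 7.89 and 7.84. For ISG15 all GFP shRNA arrays lay below both empty vector arrays, and for MX1 the constructs overlapped. Any difference at this level is compressed by the background. IFIT5, IFI6, USP18, HERC5 and TRIM25, which also belong to this response, were detected under both constructs.

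The comparison between the constructs used gene values, defined as the median of the probe sets that had an estimate on the 5 arrays and a mean at or above the median of the table, with at least 4 such probe sets per gene. This gave 14666 genes, of which 7297 were detected. No gene passed at an adjusted p under 0.05 (limma with Benjamini-Hochberg adjustment, 0 of 14666 genes, 0%), and the smallest adjusted p was 0.266. Before adjustment, 515 genes (3.51% of those tested) had a p under 0.05. The differences were also bounded: for 14605 genes (99.6%) the 95% confidence interval of the difference lay within a 1.5-fold change in either direction, a log2 difference of 0.585. Among detected genes this held for 7243 of 7297, with a median half-width of the interval of 0.19. The intervals come from limma's moderated spread over the 5 arrays and are not adjusted for the number of genes. For genes that were not detected they bound only the compressed signal.

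Differences between the constructs were close in size to those between replicates. Over detected genes the correlation of gene values lay between 0.971 and 0.987 for pairs of arrays with the same construct and between 0.962 and 0.983 for pairs with different constructs. The median absolute difference of a gene value was 0.0672 to 0.103 within a construct and 0.0669 to 0.128 between constructs. The most alike pair by this difference was GFP shRNA replicate 3 with empty vector replicate 1, and the least alike was GFP shRNA replicate 1 with empty vector replicate 2. The mean value of the detected genes was 8.81, 8.73 and 8.78 on the GFP shRNA arrays and 8.76 and 8.71 on the empty vector arrays, with means of 8.77 ± 0.0389 (SD, n = 3) and 8.74 ± 0.0385 (SD, n = 2) that differed by 0.0371 (two-sided exact permutation p = 0.4).

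HTATSF1, the gene of Tat-SF1, is the target of the 2 shRNAs that were left out here. It was detected, with 11 of 17 probe sets above the detection level. Its gene value was 8.53, 8.58 and 8.46 with the GFP shRNA and 8.52 and 8.29 with the empty vector. The values overlapped, with empty vector replicate 2 below the other 4 arrays. The means were 8.53 ± 0.0594 (SD, n = 3) and 8.4 ± 0.157 (SD, n = 2), a difference of 0.12 with a 95% confidence interval from -0.08 to 0.32 (exact permutation p = 0.3; limma adjusted p = 0.993). Of its 15 probe sets in the fit 13 had a higher mean with the GFP shRNA, with differences from -0.01 to 0.31, and none passed, by its value or by its share of the gene. Without empty vector replicate 2 the difference was 0.0095, and without empty vector replicate 1 it was 0.231.

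More genes lay above than below with the GFP shRNA. All 3 GFP shRNA arrays lay above both empty vector arrays for 1948 genes (13.3%) and below both for 777 (5.3%). Among detected genes these were 1162 (15.9%) and 241 (3.3%). The median difference was 0.0154 over all genes and 0.0388 over detected genes. After quantile normalization, which gives every array the same distribution, the counts were 1582 (10.8%) above and 1112 (7.58%) below, and the median over detected genes was 0.0094. The excess of genes above was thus smaller when the arrays were scaled to one distribution, and brightness was not tested as its source.

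**Figure D3:**
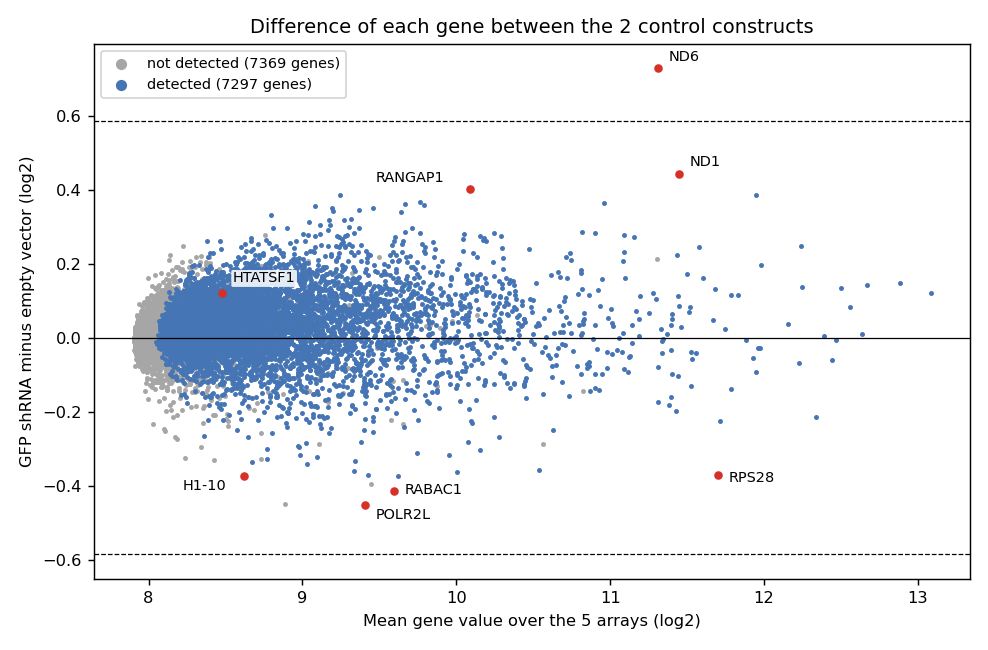
Difference of each gene between the constructs (vertical axis, GFP shRNA minus empty vector, log2) against its mean gene value over the 5 arrays (horizontal axis, log2), with detected genes in blue and the others in grey; the dashed lines mark a 1.5-fold difference. ND6 alone lies outside the lines, HTATSF1 lies at 0.12, and the detected genes centre slightly above 0.

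The genes with the smallest unadjusted p were mostly dim genes with small differences. In the direction above they were SEMA7A, ACSBG1, GPA33, RAET1K, CATSPER3, ISM1, HTR1E and CACNA1S, none of which was detected, with differences from 0.06 to 0.13. Below they were SLC6A20, CCDC78, LRP1B, SLC10A2, GABRB2, CES5A, SERPINA10 and H1-10, of which only H1-10 was detected. SLC6A20, an amino acid transporter, had the smallest p: its values were 7.93, 7.91 and 7.91 with the GFP shRNA and 8.07 and 8.05 with the empty vector, a difference of -0.14 ± 0.0185 (SE; limma adjusted p = 0.266). LRP1B, a large receptor of the LDL receptor family, had values of 7.93, 7.92 and 7.95 against 8.06 and 8.05, with 57 of its 67 probe sets in the fit. Its difference of -0.12 did not pass over the 5 arrays (limma adjusted p = 0.67). In a fit over all 11 arrays, which estimates the spread from 4 constructs, LRP1B was the 1 gene of 14666 that passed (0.00682%; limma adjusted p = 0.00975). LRP1B was not detected, and both its means lay close to the table median.

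Among detected genes the largest differences above with groups that did not overlap belonged in part to mitochondrial DNA. ND6 and ND1, subunits of respiratory complex I that are encoded in the mitochondrial genome, had differences of 0.73 and 0.44. ND6 had values of 11.53, 11.77 and 11.49 with the GFP shRNA and 11.36 and 10.38 with the empty vector, so that 1 low array, empty vector replicate 2, carried most of its difference. Without that array the difference of ND6 was 0.23. ND1 had values of 11.62, 11.72 and 11.52 against 11.25 and 11.11. ND5, another mitochondrial subunit of complex I, had a difference of 0.39. Near-identical copies of mitochondrial genes lie in the nuclear genome, and probes cannot tell them apart, so these values are uncertain as to their source.

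RANGAP1, which stimulates GTP hydrolysis by the GTPase Ran at the nuclear pore, had values of 10.15, 10.27 and 10.32 with the GFP shRNA and 9.85 and 9.84 with the empty vector. Its 3 GFP shRNA values lay well above both others, a difference of 0.40 ± 0.104 (SE; limma adjusted p = 0.993), from 25 probe sets. The fifth gene that met the rule is not reported here. The mitochondrial genes and RANGAP1 did not pass the test over all genes.

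Below, the largest differences among detected genes were those of POLR2L, RABAC1, NDUFA3, H1-10 and RPS28. POLR2L, a small subunit shared by the RNA polymerases, had values of 9.00, 9.20 and 9.48 with the GFP shRNA and 9.50 and 9.85 with the empty vector, a difference of -0.45 ± 0.151 (SE), or -0.28 without empty vector replicate 2. H1-10, a linker histone gene, had values of 8.39, 8.53 and 8.49 against 8.89 and 8.80, a difference of -0.37 ± 0.0809 (SE). The values of H1-10 were tighter within each construct than those of POLR2L. RABAC1, a membrane protein of the Golgi, and NDUFA3, a nuclear subunit of complex I, differed by -0.41 and -0.37. The ribosomal protein gene RPS28 differed by -0.37, or by -0.23 without empty vector replicate 1, but the numbers of its probe sets fall into 4 separate runs, so that some may lie in processed copies elsewhere. Each of these 5 genes had a limma adjusted p of 0.993.

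Of the members of the 26 gene lists none passed either, and the lists were described by their counts and medians. Over all detected genes 70.9% had a higher mean with the GFP shRNA. All GFP shRNA arrays lay above both empty vector arrays for 15.9% and below both for 3.3%, as given above. These are the figures against which a list is read. Each list's median is given with its range when each array was left out in turn or for the arrays that moved it most.

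The shRNA machinery followed the background. Of 25 tested genes 21 had a higher mean with the GFP shRNA, 5 had all GFP shRNA arrays above and none below, and the median difference was 0.06. After quantile normalization 2 genes had all GFP shRNA arrays above, and the median was 0.02. With an array left out it ran from 0.0008, without empty vector replicate 2, to 0.10, without empty vector replicate 1. AGO2, the Argonaute protein that cuts target transcripts, had the largest difference, with gene values of 8.98, 8.91 and 8.81 against 8.74 and 8.58. The difference was 0.24 with a 95% confidence interval from 0.04 to 0.44, did not pass over all genes, and was 0.16 without empty vector replicate 2. DICER1 differed by 0.15 and ILF2, which binds double-stranded RNA, by 0.18 (0.10 without empty vector replicate 1), also without passing. The interval of every one of the 25 genes lay within a 1.5-fold change.

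The list of double-stranded RNA sensors and interferon response had a median difference of 0.01 over 36 tested genes, between 0.0017 (without GFP shRNA replicate 1) and 0.0303 (without empty vector replicate 1). All GFP shRNA arrays lay above for 5 genes and below for 2, a share of 13.9% above, beside 13.3% over all genes. The interval of each of the 36 lay within a 1.5-fold change. TRIM25, a ubiquitin ligase that activates RIG-I, had gene values of 9.06, 9.01 and 9.02 with the GFP shRNA and 8.83 and 8.79 with the empty vector, a difference of 0.21 ± 0.0804 (SE). USP18, which removes ISG15 from proteins, had values of 8.76, 8.72 and 8.45 against 8.46 and 8.42, and 1 GFP shRNA array fell between the empty vector arrays. The probe set numbers of USP18 fall into 3 runs. MAVS, the adaptor of the RNA sensors, differed by 0.18, and XAF1, an interferon-induced gene at the background, by -0.06. None of these passed over all genes.

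Among the pathway lists, mitosis had the highest share of members above. Of 34 tested genes of mitosis 12 (35.3%) had all GFP shRNA arrays above both empty vector arrays and none had all below, 29 had a higher mean, and the median difference was 0.08. CCNA2, the cyclin of S and G2 phase, had values of 9.39, 9.48 and 9.49 with the GFP shRNA and 9.26 and 9.18 with the empty vector, a difference of 0.23 ± 0.0909 (SE). TPX2, a spindle assembly factor, had values of 10.00, 9.82 and 9.87 against 9.60 and 9.71. The constructs did not overlap for either gene, and the gap between them was of the order of the spread within a construct. AURKA, a mitotic kinase, differed by 0.23 (0.15 without GFP shRNA replicate 1) and UBE2C, the ubiquitin conjugating enzyme of the anaphase promoting complex, by 0.21.

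Of 39 genes of DNA replication 10 (25.6%) lay above and none below, and the median difference was 0.07. CDC6, which loads the replicative helicase, had values of 9.25, 9.28 and 9.36 with the GFP shRNA and 9.02 and 8.97 with the empty vector. Its difference was 0.30 ± 0.0875 (SE), and the constructs were well apart. MCM5, a subunit of that helicase, had values of 9.68, 9.78 and 9.86 against 9.61 and 9.26, a difference of 0.34 that was 0.17 without empty vector replicate 2 and 0.51 without empty vector replicate 1. After quantile normalization the medians of mitosis and replication were 0.05 and 0.03, with 9 and 7 genes above. With an array left out the median of mitosis ran from 0.04, without GFP shRNA replicate 1, to 0.13, without GFP shRNA replicate 2. GFP shRNA replicate 1 was the highest array in 55.9% of the mitosis genes. The median of replication ran from 0.06 to 0.09. No member of either list passed over all genes, and the lists' members also have many probe sets per gene (a median of 22 for mitosis and 21 for replication), a feature that moved with the differences as described below.

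Among stress lists, chaperones of the cytosol and mitochondria had a median difference of 0.10 over 26 genes, with 6 above and 1 below. That median was lower under most alternatives: 0.06 after quantile normalization, 0.04 with the mean of the probe sets, 0.05 without GFP shRNA replicate 3 or empty vector replicate 1, and 0.07 without empty vector replicate 2. Only 2 of the genes lay above after quantile normalization. The 11 chaperone genes whose probe set numbers fall into 1 run had a median of 0.06. CCT8, a subunit of the chaperonin that folds actin and tubulin, differed by 0.23 (0.14 without GFP shRNA replicate 1), and HSPA9, the mitochondrial HSP70, by 0.18 (-0.12 without empty vector replicate 2). The probe set numbers of CCT8 and of HSPA9 fall into 2 runs each. CCT8 was only just separated between the constructs, at 9.864, 9.681 and 9.503 with the GFP shRNA against 9.496 and 9.408. HSPA9 overlapped, at 9.59, 9.70 and 9.76 against 9.80 and 9.20. Of 19 chaperones and sensors of the endoplasmic reticulum 5 lay above and none below, or 2 above after quantile normalization. Their median of 0.06 lay between 0.05 and 0.08 with an array left out. Among the genes above were HSP90B1 (0.18, with probe set numbers in 2 runs) and DNAJC3 (0.19, or 0.11 without empty vector replicate 1). The 23 tested p53 genes had a median of 0.04, with 2 above and 1 below. It was 0.03 without GFP shRNA replicate 3 and 0.02 without empty vector replicate 2. The cell death gene BAX differed by -0.30, with values of 8.71, 8.98 and 8.89 against 8.84 and 9.47 that overlapped, and without empty vector replicate 2 the difference was 0.02. ATF4, the amino acid response factor, and its targets had a median of 0.06 on the 5 arrays. It was -0.02 without empty vector replicate 2, 0.01 without GFP shRNA replicate 1, and 0.12 without GFP shRNA replicate 2 or empty vector replicate 1.

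Transcription and splicing lists showed small differences. Of 35 elongation factors 11 (31.4%) lay above and none below, with a median of 0.04 that was 0.07 without empty vector replicate 1 and between 0.03 and 0.06 without any 1 of the other arrays. Quantile normalization left 6 above and a median of 0.02, and cyclic loess gave a median of 0.006. SUPT6H, a histone chaperone that travels with RNA polymerase II, differed by 0.21, and CDK12, a kinase of the polymerase tail, by 0.22. The U2 snRNP list, whose complex Tat-SF1 binds, had 3 genes above and 2 below of 27, and a median of 0.07 that was -0.03 without empty vector replicate 2. PUF60, a splicing factor that pairs with U2AF, had values of 9.50, 9.23 and 9.36 with the GFP shRNA against 9.11 and 9.09, a difference of 0.27. SNRPA1, a U2 protein with probe set numbers in 3 runs, differed by -0.23, with values that overlapped (-0.36 without GFP shRNA replicate 1, -0.14 without GFP shRNA replicate 3). SR proteins and hnRNPs had a median of 0.03 over 35 genes, which was 0.05 without GFP shRNA replicate 1 or empty vector replicate 2, and HNRNPM, with a difference of 0.26, had the largest.

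For ribosomal proteins and oxidative phosphorylation more members had a lower than a higher mean. Of 67 ribosomal protein genes 45 had a lower mean with the GFP shRNA and 22 a higher one, with 5 below and 2 above without overlap, and the median difference was -0.04. RPL10, a large subunit protein, had values of 10.27, 10.44 and 10.48 with the GFP shRNA and 10.54 and 10.97 with the empty vector, a difference of -0.36. Without empty vector replicate 2 it was -0.14. Of 45 nuclear genes of oxidative phosphorylation 30 had a lower mean, with 8 below and 4 above, and a median of -0.04. Over all detected genes 3.3% lay below and 15.9% above without overlap, and 70.9% had a higher mean. NDUFS7, a complex I subunit whose baseline level was not detected, had gene values of 9.24, 8.78 and 8.96 against 9.29 and 9.27, a difference of -0.29 (-0.18 without GFP shRNA replicate 2). SDHA, the catalytic subunit of complex II, differed by 0.26 in the other direction (0.09 without empty vector replicate 2).

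The sizes of both medians depended on single arrays. Without empty vector replicate 1 they were -0.0074 for ribosomal proteins and -0.0116 for oxidative phosphorylation, close to 0. That of ribosomal proteins was -0.01 without GFP shRNA replicate 3, -0.07 without GFP shRNA replicate 1 and -0.08 without empty vector replicate 2. That of oxidative phosphorylation was -0.02 without GFP shRNA replicate 2 and -0.07 without GFP shRNA replicate 3. After quantile normalization both were -0.08. Ribosomal protein genes have many processed copies, and the probe set numbers of all but 19 of the 67 fall into more than 1 run. Among those 19, 15 had a lower mean and the median was -0.05. For the 35 oxidative phosphorylation genes with 1 run, 23 had a lower mean and the median was -0.05. Histone genes had a median of -0.02 over 12 tested, with 3 higher and 9 lower means, and the sign turned without empty vector replicate 1 (0.03) and without GFP shRNA replicate 1 (0.0014). Another 3 lists had no settled size. The median of glycolysis was 0.03, with a range from 0.0045 (without GFP shRNA replicate 1) to 0.10 (without empty vector replicate 1). For sterol synthesis it was 0.01, with a range from -0.04 (without empty vector replicate 2) to 0.10 (without empty vector replicate 1). For the proteasome it was 0.02, with a range from -0.02 (without GFP shRNA replicate 3) to 0.05 (without GFP shRNA replicate 1), and -0.02 after quantile normalization.

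The number of probe sets that a gene has on the array moved with these differences. Detected genes with 4 to 6 probe sets (272 genes) had a median difference of -0.0087, those with 7 to 12 (1475 genes) 0.014, those with 13 to 24 (3179 genes) 0.0335, those with 25 to 48 (2089 genes) 0.0553 and those with 49 or more (282 genes) 0.0924. The share with all GFP shRNA arrays above both empty vector arrays was 9.56% in the class of fewest probe sets and 25.5% in that of most. The probe sets per gene of ribosomal proteins (median 15) and oxidative phosphorylation (median 10) were fewer than those of mitosis (median 22). Their part in the differences of the lists was not tested. After quantile normalization the order was the same, from -0.0353 to 0.0617, and without empty vector replicate 2 it ran from -0.0212 to 0.0306.

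The same classes separated single arrays. In genes with 49 or more probe sets, GFP shRNA replicate 1 lay 0.0986 above each gene's mean over the 5 arrays (median), and empty vector replicate 2 lay 0.116 below it. In genes with 4 to 6 probe sets the same arrays lay at 0.0015 and -0.0099. The other 3 arrays stayed between -0.0356 and 0.0218 in every class. The order with probe sets per gene was therefore carried mainly by 1 array of each construct.

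**Figure D4:**
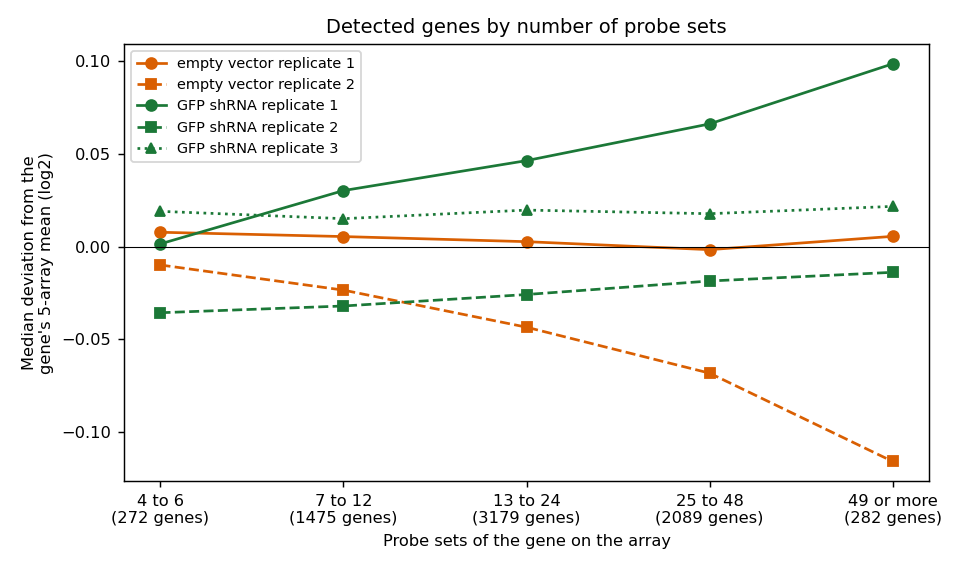
Median deviation of detected genes from their mean over the 5 arrays (vertical axis, log2), by the number of probe sets of the gene (horizontal axis), with 1 line per array. GFP shRNA replicate 1 climbs from 0.0015 to 0.0986 and empty vector replicate 2 descends from -0.0099 to -0.116, while the other 3 lines stay nearly level.

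Lists also varied between arrays of the same construct. The 27 tested genes of ATF4 and its targets lay 0.16 above their 5-array mean on GFP shRNA replicate 1 and -0.07 and -0.02 from it on replicates 2 and 3, a range of 0.22 within the construct. The difference between the constructs in these medians was 0.04. AARS1, the alanyl tRNA synthetase, showed this: its values were 10.36, 9.93 and 9.96 with the GFP shRNA and 10.12 and 9.67 with the empty vector. Glycolysis and hypoxia genes lay 0.12 above their mean on GFP shRNA replicate 1 and -0.03 and 0.01 from it on the other 2. GFP shRNA replicate 1 was the highest of the 5 arrays in 44.5% of detected genes, and empty vector replicate 2 was the lowest in 43.5%.

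**Figure D5:**
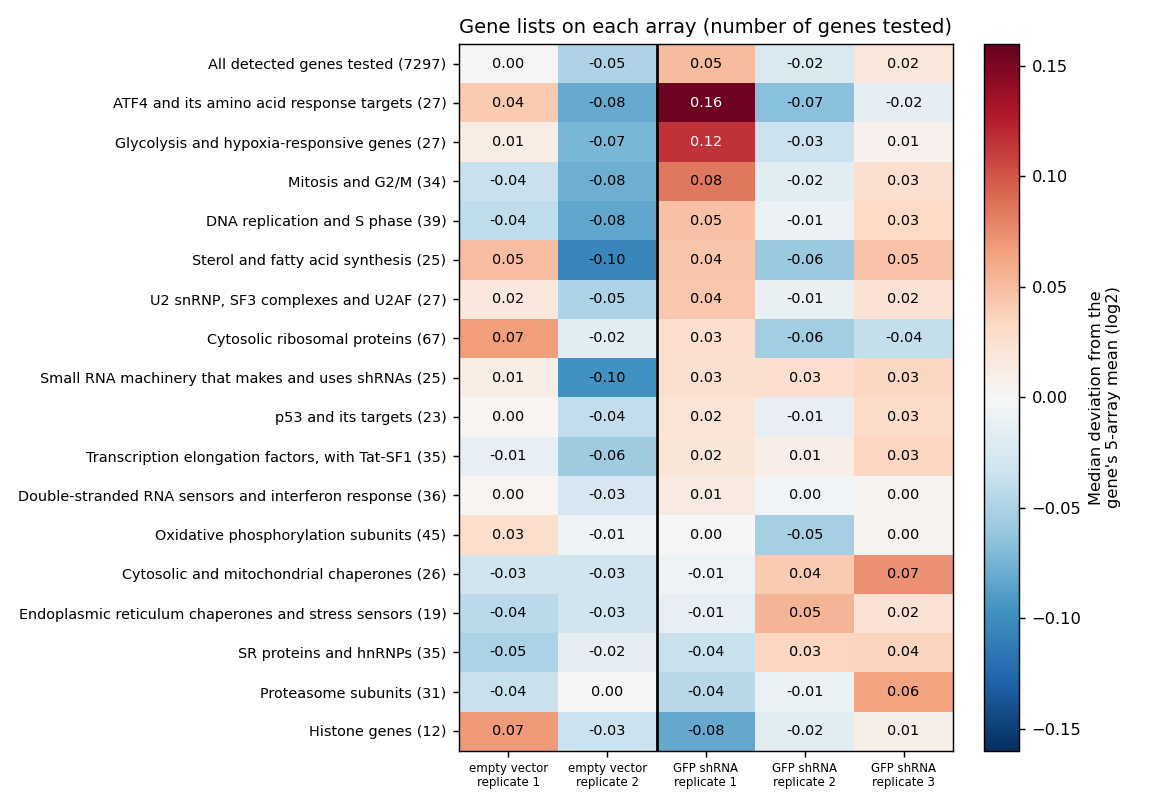
Median deviation of each gene list (rows, with the number of genes tested) from the genes' means over the 5 arrays, on each array (columns), in log2 units, with red above and blue below. The ATF4 list stands out on GFP shRNA replicate 1 at 0.16. On empty vector replicate 2 the small RNA machinery and sterol synthesis both lie at -0.10, beside -0.05 for all detected genes. The small RNA machinery lies near 0 on the other arrays.

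Exon usage was compared through the splicing index, the log2 value of a probe set minus the value of its gene on the same array. None of 224829 probe sets passed (limma with Benjamini-Hochberg adjustment, 0%, smallest adjusted p of 1), and 9984 (4.44%) had an unadjusted p under 0.05. The values of the probe sets themselves gave no call either (0%, smallest limma adjusted p of 0.251), with 8190 at an unadjusted p under 0.05. The median absolute difference of the splicing index was 0.054, and for 215889 probe sets (96.0%) the 95% confidence interval lay within a 1.5-fold change. These intervals too are not adjusted for the number of probe sets, and for dim probe sets they bound only the compressed signal. The GFP shRNA arrays all lay above for 18532 probe sets (8.24%) and below for 22214 (9.88%). Between arrays the median absolute difference of the splicing index was 0.0931 to 0.117 within a construct and 0.0933 to 0.123 between constructs.

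Probe sets with large differences are given as values only. A probe set of HSF1, the heat shock transcription factor, had log2 values of 8.33, 8.13 and 8.14 with the GFP shRNA and 7.66 and 7.62 with the empty vector, while the gene differed by -0.06. Its splicing index differed by 0.62 ± 0.0635 (SE), with the empty vector values below the detection level. A probe set of NSD1, a histone methyltransferase gene, had values of 9.93, 10.02 and 10.11 against 8.85 and 9.53, and its splicing index differed by 0.63. Here 1 empty vector array was much lower than the other. The remaining large differences above were those of LMNB2 (0.71), CMTM4 (0.70) and ATG4B (0.68), each also with spread between the empty vector or GFP shRNA arrays.

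Below, a probe set of TEDC1, a component of a centriole complex, had values of 8.46, 8.27 and 8.37 with the GFP shRNA and 9.01 and 9.08 with the empty vector, with a splicing index that differed by -0.70 ± 0.0644 (SE), in a gene that was not detected as a whole. A probe set of DLG4, the gene of the postsynaptic scaffold PSD-95, had values of 7.87, 7.76 and 7.80 against 8.29 and 8.33, in a gene that was not detected. A probe set of COX5A, a subunit of cytochrome c oxidase, had values of 8.28, 8.49 and 8.68 against 9.11 and 9.50, while its gene differed by 0.07. These 3 probe sets were separated between the constructs. In UQCRFS1, the Rieske protein gene of complex III, 1 probe set differed by -1.15 in its splicing index, but the probe set numbers of that gene fall into 2 runs, so a copy elsewhere may be measured. A probe set of DALRD3 differed by the same -1.15 through 1 array, with 6.01 on GFP shRNA replicate 1 against 8.67 and 8.6 on the other GFP shRNA arrays and 8.76 and 8.98 with the empty vector. PMS1 and FAM210B each had a probe set with a difference of -0.82. The other probe sets with the smallest unadjusted p lay above in CENATAC, C6orf132, NUDT3, DCHS1, USP36, PAQR6 and PCNX3 (0.29 to 0.45) and below in CAPN5, SLC7A2, ZFP64, RCE1, HELLS and ISL2 (-0.35 to -0.46). None of the probe sets named here passed over all probe sets, and each had a limma adjusted p of 1.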

How the data were processed

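Total RNA of T-REx-293 cells was hybridised to exon arrays. The deposited table holds log2 values per probe set, as the values show, but the authors' background correction, normalization, software and genome build are not given in the sources used, so no coordinates are printed. Probe sets were named through a listing of symbols for this array (19536 symbols, 2876 updated through RefSeq synonyms). Those with several symbols (15195) or not listed (1028028) were left out. Between 13433 and 15431 probe sets per array had no estimate. The filter on dim probe sets used the table median over the 5 arrays (7.90). Differences were fitted with limma 3.58.1 (lmFit and eBayes with a trend, R 4.3.3, version 1.17.8 of data.table), and p-values were adjusted over all genes or probe sets. The script was tested on simulated data. The labels call the samples biological replicates.

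Named genes were HTATSF1, the 8 smallest unadjusted p and the 5 largest differences among detected genes in each direction without overlap (1 of these is not reported here), the first 8 members of each list for levels, the 2 largest differences of each list, and the 6 detected genes with the largest spread within constructs. Other list members were picked with their values in view. The arrays, gene lists and rules were chosen with earlier results of these data known. Alternatives covered the filter, the mean of probe sets, quantile and cyclic loess normalization, the variance trend, all 11 arrays, a replicate block and each array left out. The classes by probe sets per gene and the 9 mitochondrial genes were added after seeing the data.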

Additional observations from a re-analysis of the deposited data

How the results depend on the processing

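No gene passed in limma under any alternative except the fit over all 11 arrays, which called 1 gene (672 at an unadjusted p under 0.05), and leaving out each array gave 0 genes. The other alternatives had 217 to 916 genes at an unadjusted p under 0.05. The splicing index gave 0 calls under every alternative run; cyclic loess was not run for it or for probe set values. Probe set values gave 3 calls without the filter on dim probe sets, 1 over the 11 arrays and 0 to 1 with an array left out (the 1 without empty vector replicate 2). ACSBG1 and HTR1E changed sign without that filter, to -0.016 and -0.0154. Detected genes numbered 3307 at the 99th percentile and 9888 by the upper quartile of probe sets, and 7358 to 7639 with an array left out. The HTATSF1 difference was 0.0095 to 0.231, and the brightness difference 0.0099 to 0.0644, with an array left out. Of the list medians under alternatives, 298 moved by less than the spread between replicates and 36 by more, the latter mostly in chaperones and in marker lists near the background.

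The replicate block was fitted to the 2 numbers that both constructs share. It gave 0 genes (916 at an unadjusted p under 0.05), 0 for the splicing index (9569) and 6 probe sets by value. HTATSF1 differed by 0.151 under the block. Whether the numbers pair the arrays cannot be decided from 2 empty vector arrays, whose deviations mirror each other. The correlations of deviations from the construct means were 0.141 for number 1 and 0.094 for number 2, which are not independent.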

Other observations

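The genes encoded in mitochondrial DNA were looked at together after ND6, ND1 and ND5 had been seen. All 9 that were measured had a higher mean with the GFP shRNA, and 6 of them had all GFP shRNA arrays above both empty vector arrays. ND6, ND1 and ND5 had been picked for such a rise, so the counts and medians given here include them by choice. Among the other genes ND2, COX2 and ATP6 were separated as well, and ND4, COX1 and COX3 were not. Over all detected genes 70.9% had a higher mean, and 15.9% had all GFP shRNA arrays above. The differences of the 9 genes ran from 0.12 to 0.73, with a median of 0.25, and none passed over all genes. Empty vector replicate 2 was the lowest of the 5 arrays for 8 of the 9. Without it 8 of the 9 had a higher mean, the exception being COX1 at -0.05, and the median was 0.13. After quantile normalization all 9 were higher, with a median of 0.21. The nuclear genes of oxidative phosphorylation, given above, had a median of -0.04. Transcripts of mitochondrial DNA share sequence with nuclear copies, so their source is uncertain here.

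The detected genes with the largest spread within the constructs were ZNF711, TSC22D3, ARRDC4, ASS1, CRABP2 and VAT1. In all 6 of them GFP shRNA replicate 1 was the highest of the 5 arrays. TSC22D3, a leucine zipper gene known for its induction by glucocorticoids, had values of 10.33, 9.19 and 9.39 with the GFP shRNA and 9.79 and 9.42 with the empty vector. ASS1, the argininosuccinate synthetase of arginine synthesis, had values of 10.71, 9.79 and 9.73 against 10.26 and 9.79. ARRDC4, an arrestin-domain gene induced by glucose, had values of 9.62, 8.65 and 8.63 against 9.00 and 8.61. These genes separated single arrays and not the constructs, and empty vector replicate 1 was the second highest array for each of the 3.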
